A study of Arabidopsis thaliana with 6 samples.

Results

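The 43 cytosolic ribosomal protein genes described here were chosen by gene ID: 18 genes for proteins of the large ribosomal subunit, 4 for its P stalk, 20 for the small subunit and RACK1A, the gene of a scaffold protein bound to the small subunit. They were followed in 6 poly(A) RNA-seq libraries of whole Arabidopsis thaliana seedlings aged 5 days, of which 3 were wild type (WT) and 3 came from the hid1 (hidden treasure 1) mutant. Every seedling was grown in continuous red light, which the study writes as cR. The labels give no accession background or allele, and HID1, known from the study as the gene of a noncoding RNA that promotes light-dependent seedling development, was not analysed here, so the genotype labels were taken as given. All 43 genes were among the 33323 listed and among the 18871 that passed the filter on low values, a mean of at least 1 RPKM (reads scaled to gene length and to library size) in either genotype. Transcripts of 42 of the 43 genes had a lower mean log2 value in hid1, 8 of them passed the test across all genes, and none was higher by that test. Of all 18871 genes tested, 7780 had a lower value and 4.21% fell by the test. Each of the 8 calls was lost in some fit with a library left out. The changes were small: the mean RPKM in hid1 lay between 32.2% below and 3.26% above that in WT, with a median of 20.6% below.

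Cytosolic ribosomes make the proteins encoded in the nucleus and consist of a small subunit, which binds the mRNA and decodes it, and a large subunit, which joins the amino acids and passes the chain through an exit tunnel. In Arabidopsis nearly every ribosomal protein is encoded by several paralogous genes that are active together, and their transcripts are abundant in growing tissue. Their promoters are known for short shared elements, among them the telo box and site II elements (the latter bound by TCP transcription factors), and their output is tied to growth through the TOR kinase pathway.

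The promoters of the 3 genes with the smallest adjusted p-values show what lies just upstream of the annotated starts. Each sequence ends at the base before the outermost start annotated by RefSeq in TAIR10.1, runs 5′ to 3′ on the gene's strand, covers up to 250 bases and was cut short where another annotated gene begins. The motifs searched were the site II core (GGCCCA, or TGGGCC on the other strand), marked by capitals, and the telo box core (AACCCTA, or TAGGGTT on the other strand), which has no match in these stretches.
RPL18 (AT3G05590, chr3:1621105-1621354, plus strand): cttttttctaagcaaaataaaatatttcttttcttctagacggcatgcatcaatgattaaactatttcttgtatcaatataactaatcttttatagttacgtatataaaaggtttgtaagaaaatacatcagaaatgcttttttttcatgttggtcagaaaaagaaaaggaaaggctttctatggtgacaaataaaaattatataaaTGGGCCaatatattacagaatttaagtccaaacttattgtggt
AT1G70600 (protein L27a, chr1:26621780-26621898, minus strand): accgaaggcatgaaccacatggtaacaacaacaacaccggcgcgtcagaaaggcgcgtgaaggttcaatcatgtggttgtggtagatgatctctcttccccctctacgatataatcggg
AT3G53890 (protein S21, chr3:19956450-19956589, minus strand): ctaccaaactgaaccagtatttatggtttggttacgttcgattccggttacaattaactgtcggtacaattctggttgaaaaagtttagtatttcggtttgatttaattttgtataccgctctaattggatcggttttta
The RPL18 promoter holds 1 site II core, whose first base lies 43 bases before the start. The site II core is not found in the printed stretches of AT1G70600 and AT3G53890.

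Over the full 250 bases, neighbouring genes included, and counting matches on both strands, 20 of the 43 members (46.5%) held the site II core against 13.7% of 27444 protein-coding genes and 16.9% of the 18237 protein-coding genes tested. The telo box core was found upstream of 9 members (20.9%), against 6.56% and 5.26%. Both cores were present in 5 members and neither in 19. These 2 cores can overlap by 1 base. Among 178 other cytosolic ribosomal protein genes the shares were 56.2% and 24.7%, and among 36 ribosome biogenesis genes 52.8% and 25%. The 20 members with a site II core had a median log2 fold change of -0.33, ranging from -0.51 to -0.07, and 2 of them fell. The 23 without it had a median of -0.33, ranging from -0.54 to 0.05, and 6 fell. The changes of members with and without this core covered nearly the same range. A match is a description of the letters only.

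The library depth was estimated from the most frequent low value among short genes, taken to stand for a single read. It was about 17700000 to 25500000 reads, so that the least abundant member rested on about 111 to 230 reads in a library. In 26 of the 43 members no exonic stretch of 50 bases also occurred in another gene's exons, and the members with large shared stretches are named below. Libraries of one genotype differed among themselves in these genes. WT replicate 1 gave the lowest WT value in 30 of the 43 members, and hid1 replicate 1 the lowest of all 6 libraries in 34. The median log2 deviation of the members from their WT mean was -0.14, 0.14 and 0.04 in WT replicates 1, 2 and 3 and -0.46, -0.22 and -0.26 in hid1 replicates 1, 2 and 3. All hid1 medians lay below all WT medians. The members held 1.78%, 2.01% and 1.97% of the summed RPKM of the WT libraries and 1.42%, 1.7% and 1.62% of that of the hid1 libraries.

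**Figure D1:**
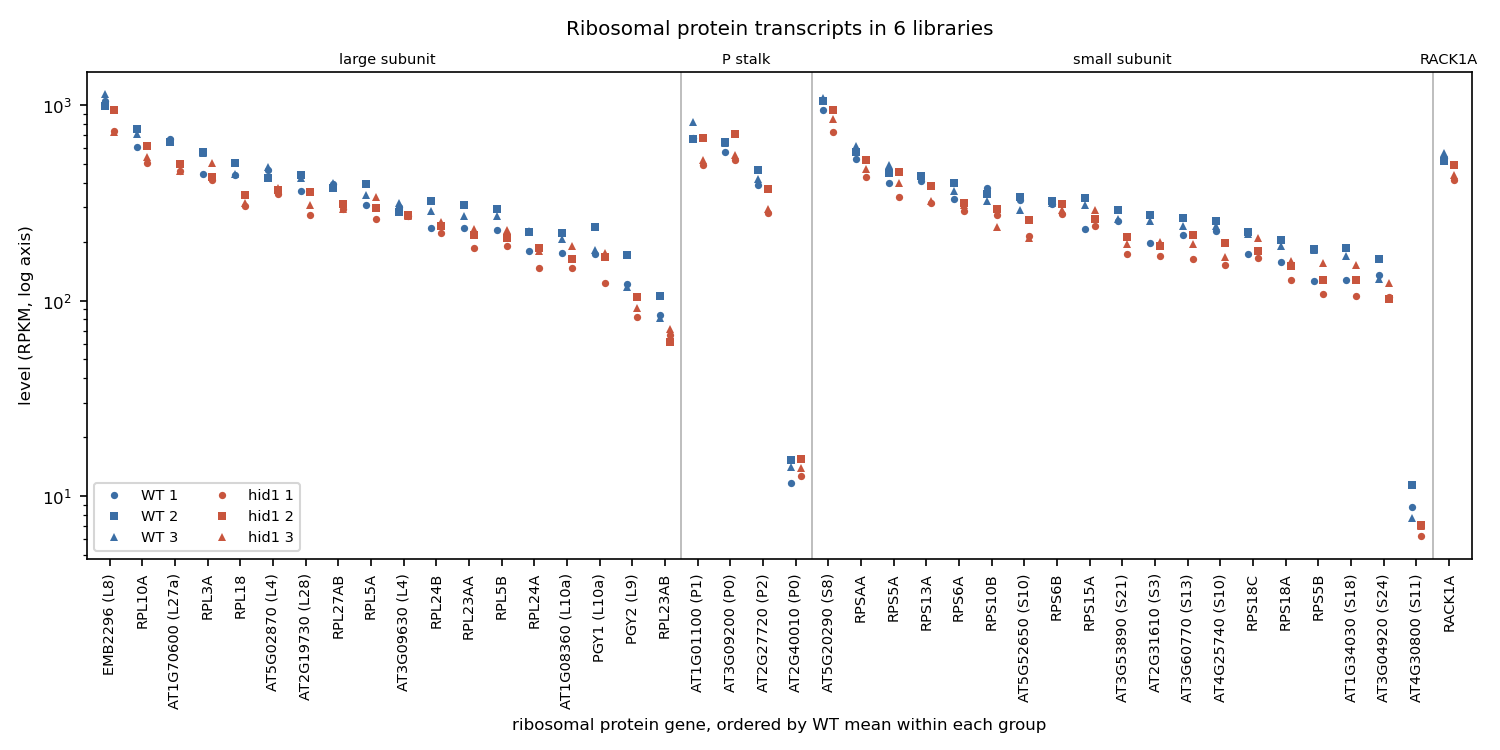
RPKM (log axis) of 42 of the 43 ribosomal protein genes in 3 WT (blue) and 3 hid1 (red) libraries, with circles, squares and triangles for replicates 1, 2 and 3, ordered by WT mean within each group. WT means run from 9.29 to 1059 RPKM, most genes lie above 100 RPKM, and the hid1 points lie mostly below the WT points of the same gene.

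Levels differed among the members far more than between the genotypes. The WT mean ran from 9.29 RPKM (AT4G30800, protein S11) to 1059 RPKM (EMB2296, protein L8), with a median of 300.6 RPKM, and 40 members lay above 100 RPKM. In the fit of limma to log2(RPKM + 1) across all genes, 8 members (18.6%) fell in hid1, at an adjusted p of at most 0.05, against 4.21% of all genes tested that fell (13.6% changed in either direction). No member rose. Whole seedlings hold several tissues, so that fewer cells of a type and less RNA per cell cannot be told apart in these libraries. The median log2 fold change of the members was -0.33, against 0.07 for all genes. In 25 members (58.1%) every hid1 library lay below every WT library, against 11.4% of all genes. These p-values measure the spread between libraries described as biological replicates. An exact permutation test of 3 against 3 cannot go below p = 0.1, so none is given for single genes.

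RPKM values of abundant transcripts depend on how a library is scaled, and the comparison was therefore repeated after dividing each library by its median ratio to the geometric mean of all libraries. These factors lay between 0.964 and 1.104, the highest being that of hid1 replicate 3. The median of all genes moved from 0.07 to -0.01, and the share of changed genes that rose moved from 69.1% of 2569 to 52.0% of 2576. After this scaling 14 members (32.6%) fell, against 6.55% of all genes, and again none rose. The 8 genes called without the scaling were all among these 14. The median of the members was -0.41, and all 43 were lower in hid1, against 9599 of all 18872 genes tested on this scale. Every hid1 library lay below every WT library in 33 members (76.7%), against 17.6% of all genes. The additional calls included AT5G02870 (L4), RPL5B, RPL23AA, AT2G27720 (P2) and AT3G04920 (S24).

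**Figure D2:**
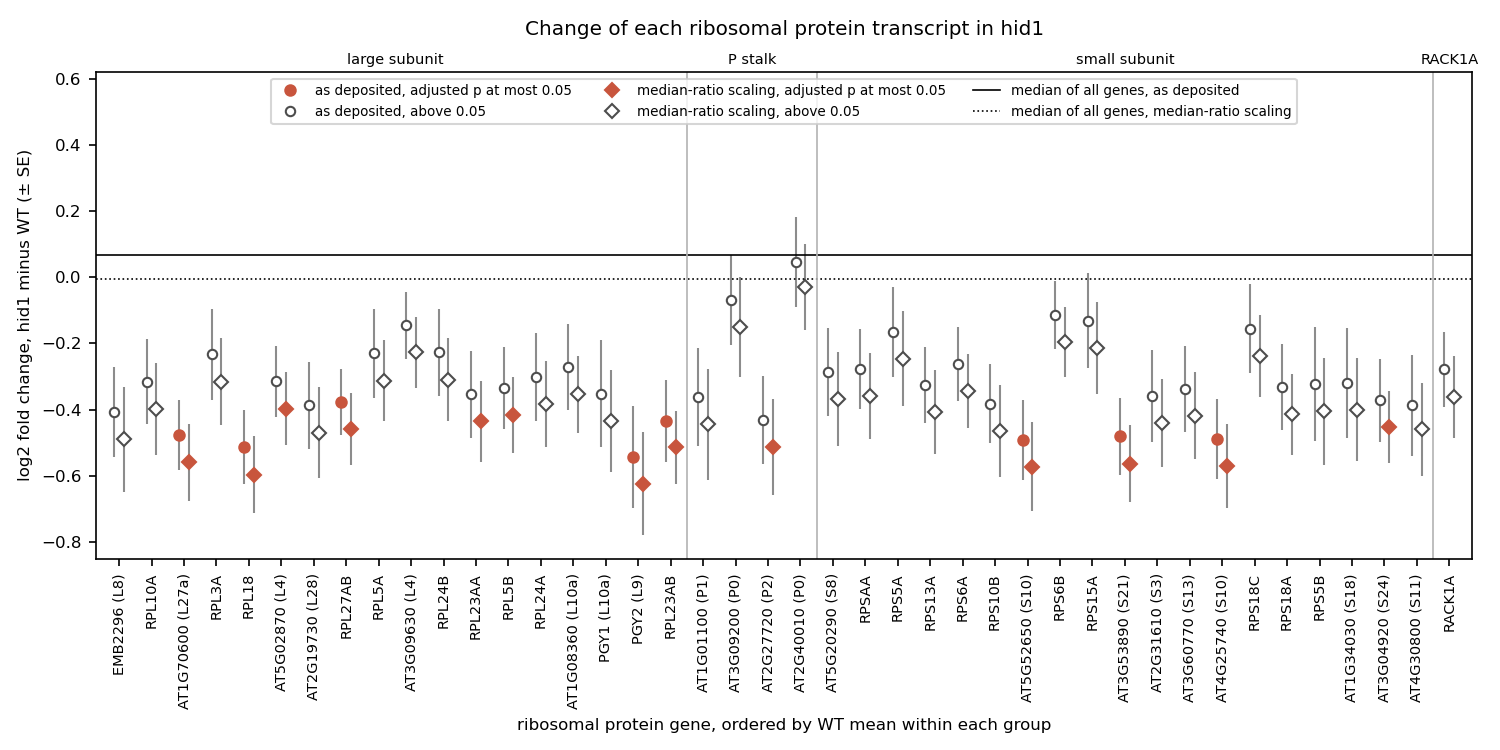
Log2 fold change (hid1 minus WT, bars ± SE) of 42 of the 43 members on log2(RPKM + 1), as deposited (circles) and after median-ratio scaling (diamonds), filled in red where the adjusted p was at most 0.05, with the median of all genes as a solid line (as deposited) and a dotted line (scaled). All genes drawn except AT2G40010 (P0) lie below 0 as deposited, and all do so after scaling.

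The count of calls depended on which libraries entered the fit. Leaving out WT replicate 1 gave 16 calls, WT replicate 2 gave 1 and WT replicate 3 gave 3. Leaving out hid1 replicates 1, 2 and 3 in turn gave 2, 7 and 2. Of all genes tested, 5.15%, 2.12% and 2.55% fell without WT replicates 1, 2 and 3. Without hid1 replicates 1, 2 and 3 the shares were 2.52%, 2.09% and 3.14%. Among 43 members, the 1 call without WT replicate 2 was thus near the share of all genes. The 2 calls without hid1 replicate 1, and the 2 without hid1 replicate 3, were also too few to set clearly apart from that share. The median of the members stayed between -0.41 and -0.25 in these fits, and at least 41 of the 43 were lower in hid1 in each. Without hid1 replicate 1, the library in which most members were lowest, the median was -0.25 and the genes called were RPL18 and AT1G70600.

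Of the 18 large-subunit genes, 5 fell, 13 did not pass, and all 18 were lower in hid1, with log2 fold changes from -0.54 to -0.15 and a median of -0.34. Of all 18871 genes tested, 4.21% fell and 7780 were lower. RPL18 (chromosome 3, 1621355 to 1623052, plus strand, TAIR10.1), whose promoter is printed above, encodes protein L18 and had the smallest adjusted p of the members. It was measured at 439, 503 and 444 RPKM in WT replicates 1, 2 and 3 and at 306, 348 and 315 RPKM in hid1 replicates 1, 2 and 3. The highest hid1 library lay well below the lowest WT library. Its log2 fold change was -0.51 ± 0.112 (SE, limma adjusted p = 0.0135), and the call ended without WT replicate 2 (adjusted p = 0.0566) and under none of the other left-out libraries. AT1G70600 (chromosome 1, 26620821 to 26621779, minus strand), the more abundant of the pair of L27a genes, was measured at 669, 647 and 666 RPKM in WT replicates 1, 2 and 3 and at 463, 502 and 459 RPKM in hid1 replicates 1, 2 and 3. WT libraries were close to each other here, and no hid1 library reached them. The log2 fold change was -0.48 ± 0.105 (SE, limma adjusted p = 0.0144), and the call ended without WT replicate 3 alone (adjusted p = 0.0596).

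RPL27AB (chromosome 1, 8262925 to 8263739, plus strand), the second L27a gene, was measured at 395, 378 and 399 RPKM in WT replicates 1, 2 and 3 and at 294, 314 and 295 RPKM in hid1 replicates 1, 2 and 3. The genotypes did not overlap, and the log2 fold change was -0.38 ± 0.101 (SE, limma adjusted p = 0.0324). Leaving out any of the 6 libraries ended this call (adjusted p from 0.0595 to 0.119). Of its exonic stretches of 50 bases, 98.2% also lie in exons of AT1G23300 on the opposite strand, a gene listed at 0 in every library. The sources used here do not say whether the authors' counting used strand, so how reads in the overlap were assigned is not known. The exons of AT1G23300 cover 2436 bases against 815 in RPL27AB, and its value of 0 includes those outside the overlap. PGY2 (chromosome 1, 12023225 to 12024783, plus strand) encodes protein L9 and is named after the piggyback leaf phenotype, a disturbance of leaf polarity. It was measured at 122, 171 and 118 RPKM in WT replicates 1, 2 and 3 and at 82.5, 104 and 91.5 RPKM in hid1 replicates 1, 2 and 3. WT replicate 2 was high, and every hid1 library lay below every WT library. At -0.54 ± 0.154 (SE, limma adjusted p = 0.0416) its log2 fold change was the lowest of all members. The call ended when WT replicate 2 or any of the 3 hid1 libraries was left out (adjusted p from 0.0622 to 0.123). Because 54.7% of its exonic 50-base stretches also occur in its paralog AT1G33120, how reads were divided between this pair is uncertain. AT1G33120 was at 599 ± 25.6 RPKM in WT and 502 ± 64.1 in hid1 (SD, n = 3). The last of the 5, RPL23AB (chromosome 3, 20500234 to 20501738, plus strand), is the minor gene of protein L23a, which sits at the mouth of the exit tunnel. It was measured at 84.4, 105 and 81.6 RPKM in WT replicates 1, 2 and 3 and at 66.7, 61.0 and 71.5 RPKM in hid1 replicates 1, 2 and 3, with no overlap between genotypes. Its log2 fold change was -0.43 ± 0.124 (SE, limma adjusted p = 0.0429). Of the 6 left-out libraries, WT replicate 1 alone kept this call, the others giving adjusted p from 0.0588 to 0.15.

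EMB2296, a gene of protein L8 needed for embryo development, had the highest level of the 43, at 1047, 990.3 and 1139 RPKM in WT replicates 1, 2 and 3 and at 734, 946 and 727 RPKM in hid1 replicates 1, 2 and 3. No hid1 library reached the lowest WT library, but hid1 replicate 2 came near it, and the log2 fold change of -0.41 ± 0.136 (SE) did not pass (limma adjusted p = 0.0728). The other 12 large-subunit members did not pass either, with log2 fold changes from -0.39 for AT2G19730 (L28) to -0.15 for AT3G09630 (L4). AT2G19730 was at 409 ± 40.5 RPKM in WT and 313 ± 42.5 in hid1 (SD, n = 3), without overlap between genotypes. Proteins L3 and L4 reach from the surface of the large subunit to its peptidyl transferase centre and exit tunnel. RPL3A was at 529 ± 74.4 RPKM in WT and 449 ± 49.6 in hid1 (SD, n = 3), with overlap. AT3G09630 was at 301 ± 16.8 RPKM in WT and 271 ± 2.22 in hid1 (SD, n = 3), and its L4 paralog AT5G02870 at 457 ± 30.9 RPKM in WT and 367 ± 12.7 in hid1. In both L4 genes the genotypes stood apart. Protein L5 carries a small ribosomal RNA into the large subunit. RPL5B was at 265 ± 32.4 RPKM in WT and 209.5 ± 19.2 in hid1 (SD, n = 3), RPL5A at 351 ± 44.5 RPKM in WT and 299 ± 38.3 in hid1. RPL5B and AT5G02870 passed after median-ratio scaling (limma adjusted p = 0.0441 and 0.0463), while RPL5A and AT3G09630 did not (adjusted p = 0.127 and 0.193). The changes of paralogs were not tested against each other.

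Protein L10 is known as a target of an antiviral receptor kinase pathway, and its main gene RPL10A was at 693 ± 76.9 RPKM in WT and 556 ± 57.3 in hid1 (SD, n = 3, limma adjusted p = 0.130), with overlap. Of the L10a genes, AT1G08360 was at 201 ± 23.4 RPKM in WT and 167 ± 21.1 in hid1 (SD, n = 3), and PGY1, named like PGY2 after the piggyback leaf phenotype, at 198 ± 34.9 RPKM in WT and 155 ± 28.2 in hid1. Both overlapped between genotypes, hid1 replicate 1 being the lowest library in each. RPL23AA, the main L23a gene, was at 272 ± 36.1 RPKM in WT and 212 ± 23.4 in hid1 (SD, n = 3), with every hid1 library below every WT library and an adjusted p from limma of 0.1 (0.0463 after median-ratio scaling). Protein L24 forms a bridge to the small subunit, and RPL24B is known for a role in reinitiation of translation after upstream reading frames. RPL24A was at 210.0 ± 26.4 RPKM in WT and 170.1 ± 20.3 in hid1 (SD, n = 3), and RPL24B at 281 ± 44.3 RPKM in WT and 238 ± 15.7 in hid1, with overlap in both.

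The P stalk, a flexible arm of the large subunit built from P0 at its base and pairs of P1 and P2, binds and activates the elongation factors. Of its 4 genes none passed, with log2 fold changes from -0.43 to 0.05. AT3G09200, the main gene of P0, was measured at 578, 646 and 643 RPKM in WT replicates 1, 2 and 3 and at 522, 711 and 559 RPKM in hid1 replicates 1, 2 and 3. Its genotypes overlapped, the highest value being that of hid1 replicate 2, and the log2 fold change was -0.07 ± 0.136 (SE, limma adjusted p = 0.773). It took the opposite sign without hid1 replicate 1 (0.02). AT2G40010, a second and far less abundant gene of P0, was measured at 11.6, 15.2 and 14.1 RPKM in WT replicates 1, 2 and 3 and at 12.7, 15.5 and 13.97 RPKM in hid1 replicates 1, 2 and 3. Libraries of both genotypes covered the same range, and the log2 fold change was 0.05 ± 0.136 (SE, limma adjusted p = 0.851), or -0.03 after median-ratio scaling. This gene overlaps AT2G40008 on the opposite strand, with 46.4% of its exonic 50-base stretches inside it, and without strand their reads cannot be told apart. AT2G40008 was at 9.02 ± 1.49 RPKM in WT and 9.15 ± 1.18 in hid1 (SD, n = 3).

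AT1G01100, a gene of P1, was measured at 680.0, 671 and 819 RPKM in WT replicates 1, 2 and 3 and at 492, 683 and 523 RPKM in hid1 replicates 1, 2 and 3. WT replicate 3 was the highest and hid1 replicate 2 lay among the WT libraries. Its log2 fold change was -0.36 ± 0.148 (SE, limma adjusted p = 0.130). AT2G27720, a gene of P2, was measured at 390.3, 465 and 418 RPKM in WT replicates 1, 2 and 3 and at 280.4, 373 and 295 RPKM in hid1 replicates 1, 2 and 3. Here the genotypes did not overlap, and the log2 fold change of -0.43 ± 0.133 (SE) lay just outside the threshold (limma adjusted p = 0.0567), and inside it after median-ratio scaling (0.0478). Summed over all listed genes of each protein, P1 and P2 were 23.3% and 27% lower in hid1 with no overlap between genotypes, and P0 was 4.65% lower with overlap, the smallest difference among the proteins. The difference between P0 and the other stalk proteins was not tested.

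Of the 20 small-subunit genes, 3 fell, 17 did not pass, and all 20 were lower in hid1, with a median log2 fold change of -0.33 (range -0.49 to -0.11). Among all 18871 genes tested, 4.21% fell and 7780 were lower. Protein S10, part of the head of the small subunit near the mRNA entry, has 3 genes, all of them members. AT5G52650 (chromosome 5, 21355541 to 21357219, minus strand) was measured at 326, 339.9 and 291 RPKM in WT replicates 1, 2 and 3 and at 215, 259 and 208 RPKM in hid1 replicates 1, 2 and 3, and fell, with a log2 fold change of -0.49 ± 0.121 (SE, limma adjusted p = 0.0235). AT4G25740 (chromosome 4, 13107136 to 13108827, minus strand) was measured at 226, 255 and 240.2 RPKM in WT replicates 1, 2 and 3 and at 152, 197 and 167 RPKM in hid1 replicates 1, 2 and 3, and likewise fell, with -0.49 ± 0.1204 (SE, limma adjusted p = 0.0233). In neither gene did the genotypes overlap. The call on AT5G52650 ended without WT replicate 2 or hid1 replicate 1 or 3 (adjusted p from 0.0705 to 0.0867), and that on AT4G25740 without each library except WT replicate 1 and hid1 replicate 2 (0.0696 to 0.08). The third gene, RPS10B, was at 351 ± 26.7 RPKM in WT and 269 ± 29.4 in hid1 (SD, n = 3), a log2 fold change of -0.38 ± 0.119 (SE) that did not pass (limma adjusted p = 0.0585). Together the S10 genes summed to 910 ± 48.2 RPKM in WT and 668 ± 73.0 in hid1 (SD, n = 3), which is 26.5% lower, and all hid1 sums lay below all WT sums.

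AT3G53890 (chromosome 3, 19955344 to 19956449, minus strand), a gene of protein S21, was measured at 255, 292 and 260.4 RPKM in WT replicates 1, 2 and 3 and at 172, 211 and 195.3 RPKM in hid1 replicates 1, 2 and 3. No hid1 library reached the lowest WT library. It fell, with a log2 fold change of -0.48 ± 0.116 (SE, limma adjusted p = 0.0209), a call kept without WT replicate 1 or hid1 replicate 2 and lost without each of the other 4 libraries (adjusted p from 0.0558 to 0.08). At the other end of the small subunit stood RPS6B, a gene of protein S6, the known phosphorylation target of the S6 kinase downstream of TOR. It was measured at 313, 321 and 314 RPKM in WT replicates 1, 2 and 3 and at 277, 310.2 and 289.8 RPKM in hid1 replicates 1, 2 and 3. The genotypes did not overlap, but the gap between them was narrow and the log2 fold change of -0.11 ± 0.102 (SE) did not pass (limma adjusted p = 0.488). The second S6 gene, RPS6A, was at 364 ± 36.01 RPKM in WT and 303 ± 14.6 in hid1 (SD, n = 3, limma adjusted p = 0.147).

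AT5G20290, a gene of protein S8, had the highest level in the small subunit, at 944, 1049 and 1084 RPKM in WT replicates 1, 2 and 3 and at 730.0, 949 and 853 RPKM in hid1 replicates 1, 2 and 3. One library of hid1, replicate 2, lay inside the WT range, and the log2 fold change of -0.29 ± 0.132 (SE) did not pass (limma adjusted p = 0.173). AT4G30800, a minor gene of protein S11, had the lowest level of all members, at 8.74, 11.4 and 7.73 RPKM in WT replicates 1, 2 and 3 and at 6.21, 7.14 and 7.03 RPKM in hid1 replicates 1, 2 and 3. All hid1 values were below all WT values, by a narrow margin, and the log2 fold change of -0.39 ± 0.153 (SE) did not pass (limma adjusted p = 0.119).

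The remaining small-subunit members that did not pass were RPSAA (protein Sa), AT2G31610 (S3, at the mRNA entry), RPS5A and RPS5B, AT3G60770 and RPS13A (S13), RPS15A, the S18 genes RPS18A, AT1G34030 and RPS18C, and AT3G04920 (S24). RPS5A, whose promoter is widely used to drive genes in dividing cells, was at 446 ± 47.7 RPKM in WT and 399 ± 57.5 in hid1 (SD, n = 3), and RPS5B at 164 ± 32.5 RPKM in WT and 130.3 ± 23.99 in hid1. Their genotypes overlapped. RPS13A and RPS18A are known as POINTED FIRST LEAF genes from their mutants. RPS13A was at 426 ± 13.8 RPKM in WT and 341 ± 40.1 in hid1 (SD, n = 3), and RPS18A at 184 ± 24.2 RPKM in WT and 146 ± 16.1 in hid1. Of the other genes of these proteins, AT3G60770 was at 241 ± 23.5 RPKM in WT and 191 ± 26.8 in hid1 (SD, n = 3), AT1G34030 at 161 ± 30.3 RPKM in WT and 128 ± 22.96 in hid1 and RPS18C at 206 ± 28.04 RPKM in WT and 184 ± 22.4 in hid1. The genotypes stood apart in both S13 genes and overlapped in the 3 S18 genes. RPSAA was at 574 ± 44.0 RPKM in WT and 475 ± 49.0 in hid1 (SD, n = 3), and AT3G04920 at 143 ± 18.4 RPKM in WT and 109.9 ± 11.5 in hid1, neither with overlap. AT2G31610 was at 242 ± 40.3 RPKM in WT and 187 ± 15.8 in hid1 (SD, n = 3) and RPS15A at 291 ± 51.9 RPKM in WT and 264 ± 25.2 in hid1, both with overlap. AT3G04920 passed after median-ratio scaling (limma adjusted p = 0.0258). Log2 fold changes in this group ran from -0.37 for AT3G04920 to -0.13 for RPS15A. Apart from RPS15A and RPS18C (-0.16) and RPS5A (-0.16), they lay at -0.28 or lower.

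RACK1A, the main gene of the RACK1 scaffold, was measured at 539, 520.0 and 568 RPKM in WT replicates 1, 2 and 3 and at 415, 491 and 437 RPKM in hid1 replicates 1, 2 and 3. No hid1 library reached the lowest WT library, and the log2 fold change was -0.28 ± 0.112 (SE), which did not pass (limma adjusted p = 0.126). Both paralogs fell. RACK1C was measured at 97.4, 110.2 and 102.5 RPKM in WT replicates 1, 2 and 3 and at 60.6, 70.0 and 75.2 RPKM in hid1 replicates 1, 2 and 3, a log2 fold change of -0.59 ± 0.114 (SE, limma adjusted p = 0.00749). In each of the 13 other settings this call stood, at adjusted p-values of up to 0.0309. RACK1B was measured at 111, 118 and 108 RPKM in WT replicates 1, 2 and 3 and at 76.4, 85.9 and 96.1 RPKM in hid1 replicates 1, 2 and 3, a log2 fold change of -0.38 ± 0.113 (SE, limma adjusted p = 0.0476), and its call ended when any of the 3 WT libraries, hid1 replicate 1, hid1 replicate 2 or the filter was left out (adjusted p up to 0.149). RACK1A made up 71.5% ± 1.81 of the summed RPKM of the 3 genes in WT and 74.3% ± 2.18 in hid1 (SD, n = 3), and these shares overlapped. Whether the RACK1 genes changed by different amounts was not tested.

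Summing all listed paralogs of each protein leaves out differences in how reads were split within a family. The members belong to 28 proteins. The summed RPKM was lower in hid1 for all 28, by between 27.5% (L18) and 4.65% (P0). For 16 proteins every hid1 sum lay below every WT sum, and for 12 the genotypes overlapped. No share over other genes was computed for such sums. Among single genes, every hid1 library lay below every WT library in 11.4% of all genes tested. L27a, whose genes are both members, summed to 1051 ± 22.7 RPKM in WT and 775 ± 34.9 in hid1 (SD, n = 3). L18 summed to 769 ± 89.6 in WT and 557 ± 40.8 in hid1 (SD, n = 3), and P2 to 958 ± 69.8 and 699 ± 65.0.

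The share of a gene within its protein's sum does not depend on library scaling. Of the 43 members, 6 had a higher and 8 a lower share in all hid1 libraries than in all WT libraries, and 29 overlapped. These 14 of 43 (32.6%) stand beside 31.5% of all 73 listed genes of the same proteins, members included. As the 73 hold the members and their partners, these percentages are not independent, and nothing is read from their closeness. In a family with 2 genes a gain for either gene is a loss for its partner. Both genes of L4, L5 and L27a are among the 14, so these are not 14 separate shifts. The largest loss was that of AT3G53890, which held 51.2%, 51.5% and 51.3% of the S21 sum in WT replicates 1, 2 and 3 and 45.2%, 45.6% and 46.6% in hid1. WT shares were nearly constant, and every hid1 share lay below them by several percentage points. The largest gain was that of RPS15A, with 49.2%, 52.7% and 55.2% of the S15a sum in WT and 56.9%, 55.7% and 57.1% in hid1, where WT varied more than hid1 and the gap was small. Between the L4 genes, the share of AT3G09630 was 39.7% ± 0.393 in WT and 42.6% ± 0.855 in hid1 (SD, n = 3), with AT5G02870 holding the rest. RPL3A held 93.1% ± 0.25 of the L3 sum in WT and 95.4% ± 0.3 in hid1 (SD, n = 3), beside RPL3B, which fell.

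**Figure D3:**
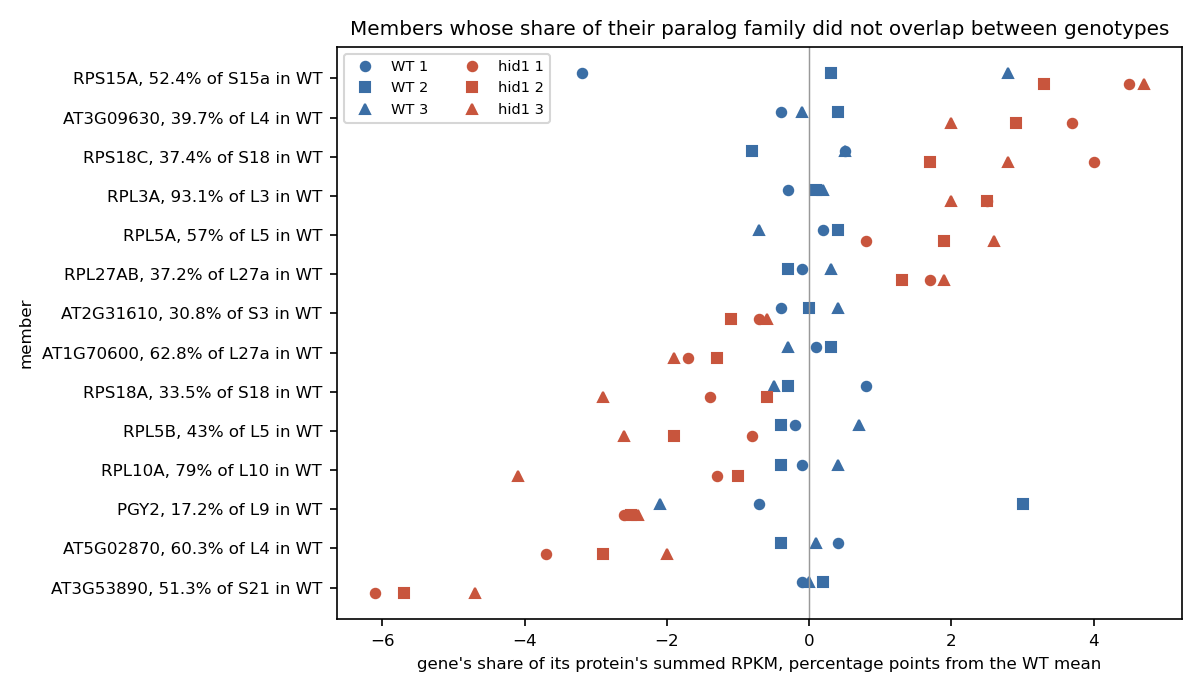
Share of the summed RPKM of its protein held by each of the 14 members whose shares did not overlap between genotypes, in percentage points from the WT mean, for 3 WT (blue) and 3 hid1 (red) libraries. AT3G53890 (S21) moved most, from 51.3% to 45.8%, and RPS15A gained most, from 52.4% to 56.6%. Both genes of L4, L5 and L27a are drawn, each such pair showing the same shift from both sides.

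Members are a part of the cytosolic ribosomal protein genes. Of 178 others listed, 169 passed the filter on low values and 9 did not, several of them listed at 0 in every library. Among these 169, the test found 41 (24.3%) that fell, against 4.21% of all genes, and 1 that rose, leaving 127. The median log2 fold change of the 169 was -0.34. After median-ratio scaling 63 (37.3%) fell, against 6.55% of all genes, none rose, and the median was -0.42. Of the 41, 5 fell in each of the 13 other settings. Leaving out WT replicates 1, 2 and 3 in turn gave 78, 8 and 9 falls in this list, leaving out hid1 replicates 1, 2 and 3 gave 9, 35 and 14, and WT replicate 2 alone ended 34 of the 41 calls. AT4G13170, a gene of protein L13a, was at 95.2 ± 2.59 RPKM in WT and 57.4 ± 2.90 in hid1 (SD, n = 3), a log2 fold change of -0.72 ± 0.0987 (SE, limma adjusted p = 0.00102). AT1G15250, a gene of L37, was at 44.8 ± 1.68 RPKM in WT and 27.7 ± 3.04 in hid1 (SD, n = 3, log2 fold change -0.68, limma adjusted p = 0.00341), and RPL3B at 39.1 ± 4.18 RPKM in WT and 21.7 ± 3.93 in hid1 (SD, n = 3, log2 fold change -0.83, adjusted p = 0.00377). These 3 falls were larger than that of any member and passed in each of the 13 other settings. The gene that rose, named after its values were seen, was RPL18AA, one of the L18a genes, at 23.1 ± 2.57 RPKM in WT and 31.95 ± 1.22 in hid1 (SD, n = 3, limma adjusted p = 0.0255), and its call was lost in 7 of the 13 other settings, among them median-ratio scaling (adjusted p = 0.052).

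Ribosome biogenesis factors, which modify and assemble the ribosomal RNA and proteins in the nucleolus, showed a median close to that of the members. In this list of 36, 9 genes (25%) fell, against 4.21% of all genes, 1 rose, and the test left 26. The median log2 fold change of the list was -0.31. After median-ratio scaling 17 (47.2%) fell, against 6.55% of all genes, 1 rose, and the median was -0.39. Without WT replicate 2, hid1 replicate 1 or hid1 replicate 2, 4 genes fell in each case, and 5 of the 9 calls were lost each time. NUC-L2, a gene of the nucleolar protein nucleolin, rose from 0.710 ± 0.316 to 2.64 ± 0.240 RPKM (SD, n = 3, limma adjusted p = 0.00387). Its WT mean lay below the filter's limit of 1 RPKM, so it entered the test only through hid1, where it was high. AT3G03920, a gene of the small nucleolar particle that directs pseudouridylation (the H/ACA type), was at 112 ± 6.64 RPKM in WT and 75.5 ± 6.43 in hid1 (SD, n = 3, limma adjusted p = 0.00715). FIB2, a gene of the ribosomal RNA methyltransferase fibrillarin, was at 77.5 ± 1.80 RPKM in WT and 53.5 ± 5.41 in hid1 (SD, n = 3, limma adjusted p = 0.00992). These 3 calls held in each of the 13 other settings.

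Translation factors carry the ribosome through initiation, elongation and termination. In limma none of 38 such genes fell and 1 rose, with a median of -0.06 (8 genes had an unadjusted p under 0.05, and 4 fell after median-ratio scaling, where the median was -0.14). As deposited, every hid1 library lay below every WT library in 10 of the 38 (26.3%), against 11.4% of all genes. In 4 every hid1 library lay above every WT library, as in 4367 of all 18871 genes. Of all genes tested 4.21% fell as deposited and 6.55% after this scaling, so that few falls were to be looked for in lists this short. ELF5A-3, a gene of translation factor eIF5A, rose from 51.1 ± 2.94 to 85.6 ± 14.3 RPKM (SD, n = 3, limma adjusted p = 0.0054). Nuclear genes for plastid ribosomal proteins gave no call among 32 in limma, as deposited or after median-ratio scaling. All 32 had a lower mean log2 value in hid1 on both scales, against 7780 of 18871 genes as deposited and 9599 of 18872 after scaling. The median of these 32 was -0.15 as deposited (5 had an unadjusted p under 0.05) and -0.23 after scaling (9 under 0.05). An abundant one, RPL12-A, was at 765 ± 60.5 RPKM in WT and 686 ± 96.9 in hid1 (SD, n = 3). In other settings 1 plastid gene fell with quantile normalization, 3 without WT replicate 1 and 5 with the replicate number as a block. Of the 12 genes of TOR, SnRK1 and TCP regulators none passed in limma either (4 had an unadjusted p under 0.05, and none passed after scaling), with a median of 0.16. The 2 most abundant were AT3G51800, a gene of an EBP1-like growth regulator, at 74.0 ± 10.9 RPKM in WT and 65.2 ± 8.36 in hid1 (SD, n = 3), and the S6 kinase gene AT3G08730, at 33.0 ± 4.05 RPKM in WT and 33.9 ± 0.7998 in hid1. No difference between these lists was tested.

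**Figure D4:**
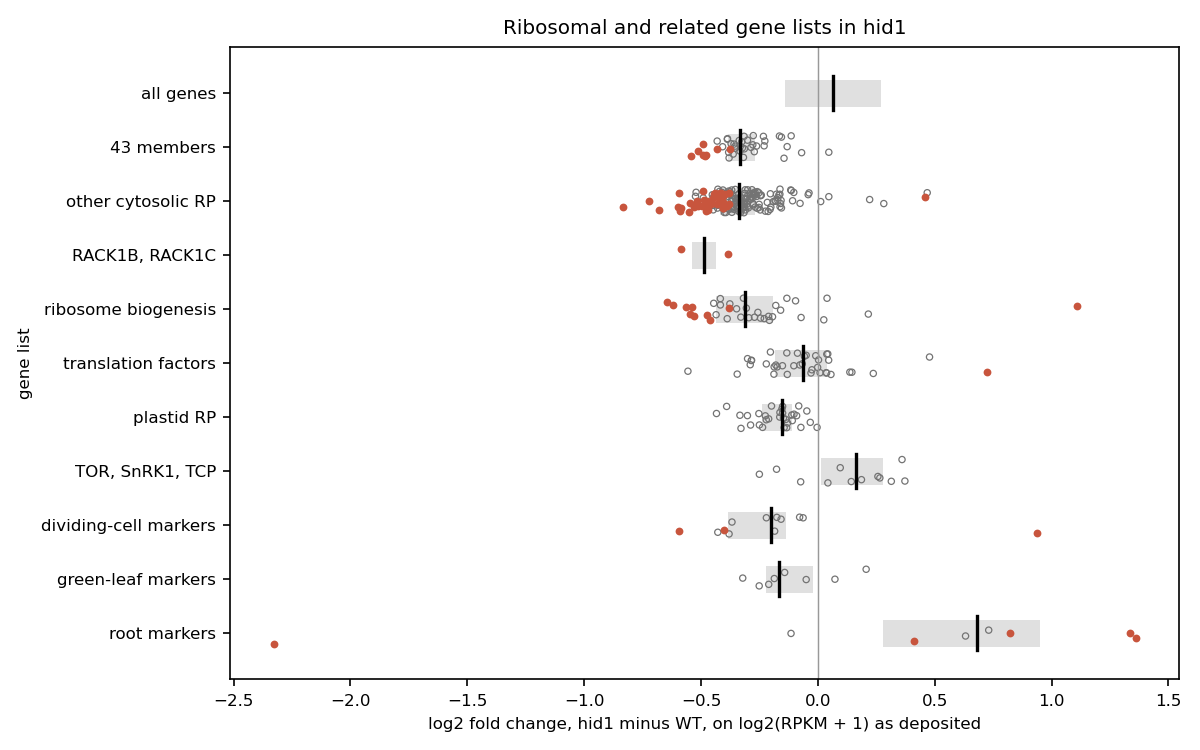
Log2 fold change (hid1 minus WT, on log2(RPKM + 1) as deposited) of each tested gene by list, with red points for genes at an adjusted p of at most 0.05, a grey bar from the first to the third quartile and a black line at the median. The medians are 0.07 for all genes, -0.33 for the 43 members, -0.34 for the other cytosolic ribosomal protein genes, -0.31 for biogenesis factors and -0.06 for translation factors.

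Among 12 markers of root tissue 8 passed the filter, 4 rising and 1 falling in the test and 3 left, and none of the 12 was at 0 in any library. Of all 18871 genes tested, 1775 rose and 4.21% fell. After median-ratio scaling 2 of the markers rose and 1 fell, the calls on PRP3 and SCR being lost (limma adjusted p = 0.0785 and 0.072). Of all 18872 genes tested on that scale, 1340 rose and 6.55% fell. Leaving out WT replicates 1, 2 and 3 in turn gave 5, 1 and 1 rises among the markers, and leaving out hid1 replicates 1, 2 and 3 gave 0, 2 and 1. The summed level of the list, 80.2 to 152 RPKM in WT and 101.7 to 171 in hid1, overlapped between genotypes. Without IRT1, the root iron transporter gene, which fell from 36.2 ± 12.3 to 6.26 ± 1.46 RPKM (SD, n = 3, limma adjusted p = 0.000127), the other 11 markers summed to 101.5, 50.9 and 53.1 RPKM in WT replicates 1, 2 and 3 and to 166, 95.3 and 123 in hid1. Within each genotype replicate 1 had the highest root sum, with or without IRT1, and the lowest median of the members. PRP3 was a large part of these sums. It was measured at 53.0, 18.1 and 19.2 RPKM in WT replicates 1, 2 and 3 and at 108.6, 41.9 and 74.3 in hid1, with overlap. WT replicate 1, at a root sum above that of hid1 replicate 2, had the higher members of these libraries. With IRT1 counted, the root sum of WT replicate 1 (151.9 RPKM) also lay above that of hid1 replicate 3 (130.7), whose members were lower. What links the root sums and the members was not tested. EXPA7, an expansin gene of root hairs, rose from 4.17 ± 2.59 to 11.3 ± 3.02 RPKM (SD, n = 3, limma adjusted p = 0.0147). RSL4, a root hair regulator gene, rose from 0.647 ± 0.276 to 1.90 ± 0.301 RPKM (SD, n = 3, limma adjusted p = 0.0177). The WT mean of RSL4 lay below the filter's limit of 1 RPKM, so it entered the test only through hid1, where it was high. The call on EXPA7 was lost without hid1 replicate 1, without hid1 replicate 2 and without the filter, and that on RSL4 without each library except WT replicate 1 and hid1 replicate 2 (adjusted p of at most 0.0739 and 0.0719).

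The list of 12 markers of dividing cells had 2 that fell, 1 that rose and 9 that did not pass (4, 1 and 7 after median-ratio scaling, and no fall without WT replicate 2 or without hid1 replicate 2), and none was at 0 in any library. Of all genes tested, 4.21% fell and 1775 of 18871 rose, or 6.55% and 1340 of 18872 after this scaling. The sums of the 12 markers, 291 to 327 RPKM in WT and 238 to 248 in hid1, did not overlap. The most abundant of them was the histone H3.1 gene AT1G09200. STM, a shoot meristem regulator gene, rose from 2.62 ± 0.303 to 5.97 ± 1.11 RPKM (SD, n = 3, limma adjusted p = 0.004), while SYP111, the syntaxin gene of the forming cell plate, fell from 22 ± 0.667 to 14.4 ± 2.52 (adjusted p = 0.0168, lost without WT replicate 2 or hid1 replicate 2). AT1G09200 fell from 178 ± 17.9 to 134 ± 3.20 (SD, n = 3, limma adjusted p = 0.0332), a call lost whenever any of the 6 libraries was left out. None of 8 green-leaf markers passed in limma or had an unadjusted p under 0.05, also after scaling, and their sums were 91290 to 93090 RPKM in WT and 75020 to 96730 in hid1. The 2 most abundant were CAB1, a light-harvesting protein gene, at 31890 ± 2186 RPKM in WT and 31230 ± 6895 in hid1 (SD, n = 3), and RBCS1A, a gene of the small subunit of Rubisco, at 19730 ± 2311 RPKM in WT and 20900 ± 3992 in hid1. The part of root, dividing or green-leaf cells in the lower ribosomal protein levels was not tested.

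**Figure D5:**
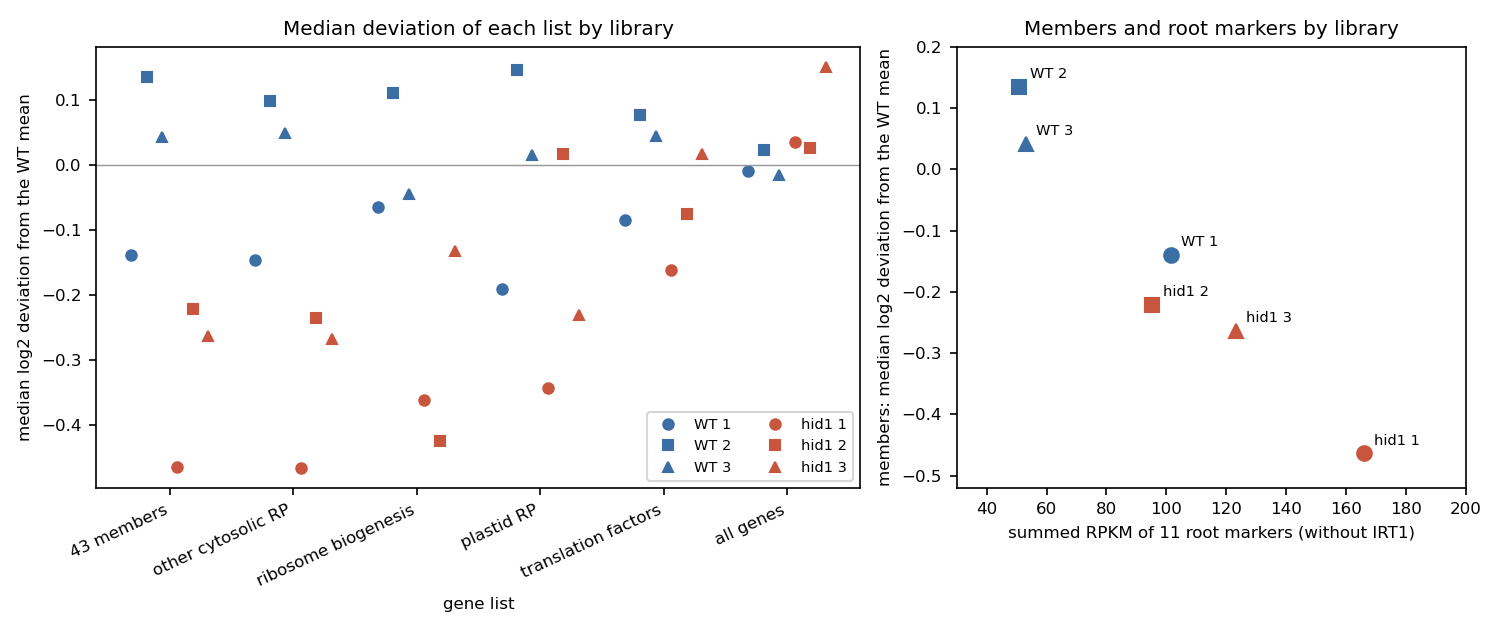
Left, median log2 deviation from the WT mean of 5 gene lists and of all genes in each WT (blue) and hid1 (red) library. Right, the members' median deviation against the summed RPKM of 11 root markers, IRT1 left out, in the same libraries. WT replicates 1, 2 and 3 lie at 101.5, 50.9 and 53.1 RPKM with deviations of -0.14, 0.14 and 0.04. The hid1 replicates 1, 2 and 3 lie at 166, 95.3 and 123 RPKM with -0.46, -0.22 and -0.26. With IRT1, which fell, the sums of replicates 1, 2 and 3 are 151.9, 80.17 and 81.99 RPKM in WT and 170.6, 101.7 and 130.7 in hid1.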

How the data were processed

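Poly(A) RNA of 5-day-old seedlings was sequenced on an Illumina HiSeq system from TruSeq libraries, per the labels' protocols. Per the submitters' processing notes, reads were mapped to TAIR10 with TopHat2 2.0.9 and Cuffdiff 2.0.0 was used; how reads were counted, with which annotation, strand setting and rule for reads with several matches, is not stated there or in the labels. The authors deposited 1 RPKM value per gene and library, normalized to gene length and library size, and no counts. These were tested with limma 3.58.1 in R 4.3.3 (lmFit and eBayes with trend, genotype only, all 6 libraries) on log2(RPKM + 1), for genes whose mean reached 1 RPKM in WT or in hid1, with Benjamini-Hochberg adjustment over all genes tested and calls at an adjusted p of at most 0.05. Fold changes are on that scale, which understates those of low genes. The procedure was also run on simulated data. There the noise was independent in each gene and the changes were larger than that of any member, so that run does not bear on the members' calls.

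Positions and promoters came from RefSeq's TAIR10.1 assembly for the same gene IDs (32835 of 33323 matched); the files hold no coordinates. The promoter table planned as their source was not at hand, and protein sequences were not used here. Depth was estimated from the spacing of RPKM values in genes under 400 bases.

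The 43 members and all lists were chosen with earlier results of these data known; the lists of other genes were written from general knowledge and checked against RefSeq. Values in every library are given for each called member, the 3 highest and lowest levels, the 3 largest and smallest changes, the P stalk and RACK1; from other lists up to 3 called genes with the smallest adjusted p are named, or the 2 most abundant. Some genes are counted in all totals but not reported here by name or drawn singly. Alternatives were median-ratio and quantile scaling, a removed length trend, pseudocounts of 0.1 and 5, no filter, a replicate block and leaving out each library; median-ratio scaling combined with the last 2 was added after seeing the data.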

Additional observations from a re-analysis of the deposited data

How the results depend on the processing

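The 8 calls among the members, all lower in hid1, became 14 with median-ratio scaling, 11 with quantile normalization, 12 with the length trend removed, 8 with a pseudocount of 0.1 or 5, and 4 with no filter on low values, where 25794 genes were tested. Of all genes tested, 4.21% fell as deposited, 6.55% with median-ratio scaling, 7.12% with quantile normalization, 6.08% without the length trend and 1.91% with no filter. Leaving out a library gave 1 to 16 calls, and 1 to 22 after median-ratio scaling. The share of all genes that fell was then 2.09% to 5.15%, and 3% to 7.71% after that scaling. Leaving out a library likewise gave 1430 to 3260 changed genes in place of 2569, or 1252 to 3262 after median-ratio scaling, and 1819 genes with no filter. The median log2 fold change of the members kept its sign throughout, between -0.486 and -0.252 over all left-out libraries, the lowest value being that without WT replicate 1 after median-ratio scaling. No member rose under any setting tried, and no called member changed sign. Without a filter the calls on PGY2, RPL23AB, AT4G25740 and AT5G52650 were lost. The P0 genes, which passed under no setting, changed sign: AT2G40010 went from 0.047 to -0.030 with median-ratio scaling (also with the block), -0.059 with quantile normalization, -0.014 with the length trend removed and between -0.131 and 0.125 without a library, and AT3G09200 lay between -0.309 and 0.020 without a library. The cause was not tested. Fitting the replicate number as a block gave 25 calls among the members, all lower, and 3635 changed genes. The block after median-ratio scaling gave 28. Of all genes tested, 6.63% and 8.96% fell in these fits. Nothing in the labels says that a number marks a shared batch: deviations from the genotype means correlated at 0.315, 0.061 and 0.105 between same-numbered libraries, and WT replicate 2 correlated best with hid1 replicate 3 (0.255). The hid1 means of the called members were changed by -32.2% to -23.0%; RPKM values carry no counts, so counting error was not modelled, and depth is approximate.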
